A study of Mus musculus with 15 samples.

Results

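The miRNAs described here are 10 of the 584 miRNA assays on a pair of TaqMan PCR cards, chosen by name alone: every assay called miR-126, miR-143, miR-145, miR-199a, miR-199b or miR-214, whichever arm of the precursor it reads. Card A (375 miRNA assays) holds 7 of them: mmu-miR-126-3p, mmu-miR-126-5p, mmu-miR-143, mmu-miR-145, mmu-miR-199a-3p, mmu-miR-199a-5p and mmu-miR-214, written below without the species prefix. Card B (209 miRNA assays) holds the other 3, miR-145*, miR-199b* and miR-214*, each in 2 wells per sample. The star marks the arm that was considered the minor product when the assays were named.

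Total RNA came from 2 mouse lines of pancreatic islet tumours: αTC1-6, a glucagonoma line used as a model of α cells, and βTC1, an insulinoma line used as a model of β cells. The study asked which miRNAs differ between both lines at steady state, and which change in αTC1-6 exposed to pro-inflammatory cytokines. The 15 samples form 5 groups of 3 biological replicates: βTC1 untreated at 24 h, αTC1-6 untreated at 24 h and at 48 h, and αTC1-6 with cytokines at 24 h and at 48 h. The cytokine mixture combined 50 IU/ml of IL-1β with 1000 IU/ml each of IFN-γ and TNF-α. No cytokine-treated or 48 h βTC1 sample was analysed here, and each cell type is represented by 1 tumour line, so that line and cell type cannot be told apart.

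Levels are threshold cycles (Ct), the PCR cycle at which an assay's signal crosses its threshold, so a lower Ct is more product. ΔCt is that Ct after subtraction of the sample's own miR-26a value, which lay between 16.98 and 18.98 cycles, and a log2 difference is the first group's mean -ΔCt minus the second's. A well reported without a crossing is called undetermined and stands at a Ct of 40 in the tests. Some wells reported so in the deposited normalized table, which the main tests use, have a Ct in the deposited non-normalized one. An undetermined well is thus not proof of absence. miR-375, the miRNA best known for its abundance in islet endocrine cells, had a Ct in all 15 samples: 13.42 to 14.58 in βTC1 and 14.35 to 15.98 over the αTC1-6 groups. Its log2 difference between untreated αTC1-6 and βTC1 at 24 h was -1.064. The other islet endocrine assays, miR-7a (1.245) and miR-7b (0.405), went the other way. Of these 3 assays, 0 passed the test between the lines that is described below.

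miR-126 is best known from endothelial cells, where it lies within an intron of Egfl7 and is required for vascular integrity and angiogenic signalling. miR-143 and miR-145 are made from a shared precursor and are known for the contractile state of smooth muscle. miR-199a and miR-214 come in part from a shared long transcript, Dnm3os, and are known from mesenchyme and fibroblasts. In tissue these families are commonly read as signals of vessel and stroma, which a cultured endocrine line lacks.

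The mature sequences that RefSeq gives for 5 of the assays (build GRCm38.p6) are shown 5′ to 3′ because they settle which of the names can be told apart. Capitals mark the seed, bases 2 to 8, which pairs with target mRNAs.
miR-126-3p: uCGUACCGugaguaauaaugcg
miR-199a-3p: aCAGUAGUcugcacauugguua
miR-199a-5p: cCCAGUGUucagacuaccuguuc
miR-214: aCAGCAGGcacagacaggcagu
miR-214*: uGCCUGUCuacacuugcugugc
The 5 seeds differ from each other. Among 1679 mature entries in the RefSeq table the seed of miR-126-3p was carried by 1 entry, its own, as were those of miR-199a-5p and miR-214*, whereas miR-214 shared its seed with miR-761. The 3p arms of miR-199a and miR-199b come from 3 genes but are 1 sequence, so the miR-199a-3p assay reads their sum.

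Mir126a places miR-126-3p at chr2:26591402-26591423 on the plus strand, inside Egfl7. miR-214 lies at chr1:162223438-162223459 and miR-214* at chr1:162223397-162223418, both on the plus strand of Mir214. Mir199a-2 holds miR-199a-5p at chr1:162217844-162217866 and miR-199a-3p at chr1:162217883-162217904 on the same strand, 5444 bases from Mir214, and both genes lie inside the lncRNA Dnm3os. A second copy, Mir199a-1, carries miR-199a-5p at chr9:21496537-21496559 and miR-199a-3p at chr9:21496498-21496519 on the minus strand, inside Dnm2. Mir199b lies inside Dnm1.

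Detection divided the 10 assays. miR-126-3p, miR-126-5p, miR-145 and miR-199a-3p had a Ct in all 15 samples, with Ct ranges of 22.16 to 26.55, 24.95 to 28.53, 27.97 to 31.01 and 27.85 to 30.01, respectively. The other 6 had a Ct in 3 to 12 samples: miR-199a-5p in 3, miR-214 in 4, miR-145* in 5, miR-143 in 8, miR-214* in 9 and miR-199b* in 12. Each assay amplifies with its own efficiency, so these Ct values do not rank the miRNAs by abundance. For comparison, 279 of the 584 assays had a Ct in all 15 samples.

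The Ct values stand in both a normalized and a non-normalized deposited table, which differ on card A mainly at 24 h and on card B at both times. On card A, 59 to 85 wells of every 24 h sample, but 0 or 1 well of every 48 h sample, lack in the normalized table a Ct that the other table gives. Among the chosen assays of card A this touched miR-214 in 9 samples, miR-143 in 6 and miR-199a-5p in 2. On card B such wells numbered 6 to 17 in every 24 h sample and 8 to 13 in every 48 h sample. Some values present in both tables also differ, as shown for miR-143 below. The listed and marker miRNAs below were read from the normalized table only. The 4 assays detected throughout had the same Ct in both tables.

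**Figure D1:**
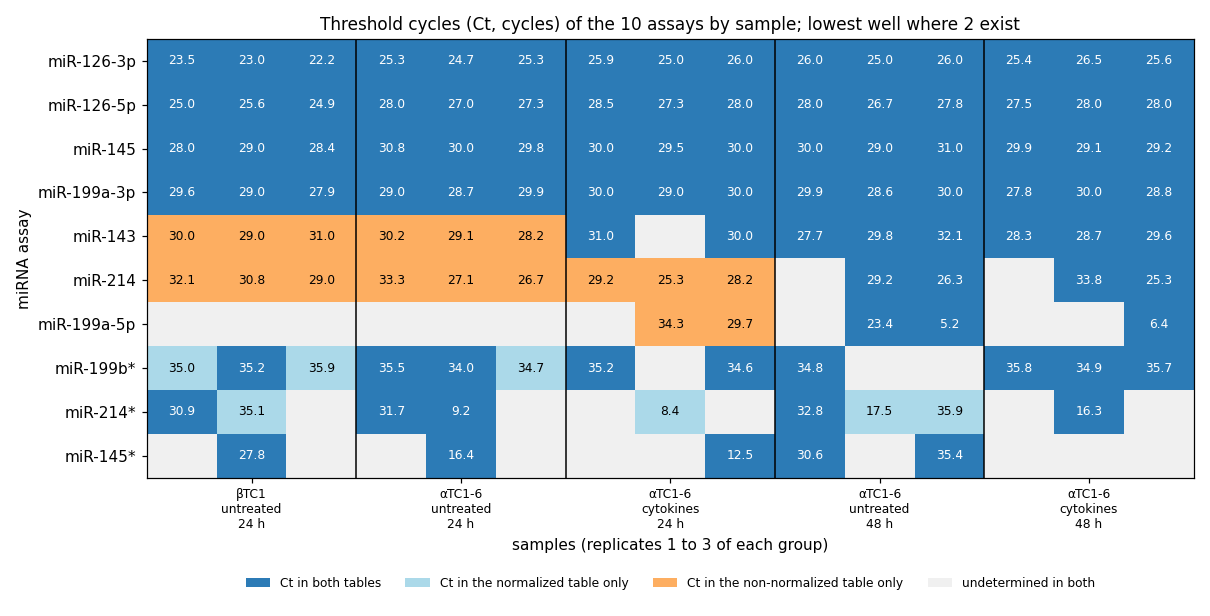
Ct of the 10 assays (rows) in the 15 samples (columns, replicates 1 to 3 of each group), coloured by the deposited table that holds a Ct; for the star assays the lowest of 2 wells is printed, and the non-normalized table gives both wells of such an assay the same value. The upper 4 rows have a Ct in both tables in all 15 samples, and miR-143 and miR-214 have a Ct only in the non-normalized table in the 3 βTC1 and 3 untreated αTC1-6 samples of 24 h.

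At steady state both arms of miR-126 and miR-145 were lower in αTC1-6 than in βTC1, by 5.24-fold, 5.24-fold and 3.75-fold on average. These were 3 of the 6 chosen assays that passed the filter on detection, and 0 of the 6 passed as higher (Limma test with Benjamini-Hochberg correction, threshold 0.05). Over all 480 miRNAs tested, 29.6% passed, 17.7% lower and 11.9% higher in αTC1-6, and the median log2 difference was -0.52. This median was -0.049 when βTC1 replicate 2 was left out and -0.80 when αTC1-6 replicate 1 was. The other 4 chosen assays had a Ct in 0 to 2 of these 6 samples and were not tested.

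miR-126-3p, the arm known to act on Spred1 and Pik3r2 in endothelial cells, had ΔCt values of 5.10, 4.22 and 4.62 in the 3 βTC1 replicates. In untreated αTC1-6 at 24 h its ΔCt values were 6.33, 7.20 and 7.58. All 3 αTC1-6 samples thus lay above all 3 βTC1 samples on the ΔCt scale, that is, lower in level. The means were 4.65 ± 0.44 and 7.04 ± 0.64 (SD, n = 3), and the log2 difference was -2.39 (standard error 0.53, 95% confidence interval -3.71 to -1.06, Limma test, Benjamini-Hochberg adjusted p-value 0.0141).

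miR-126-5p, the passenger arm of the same hairpin, had ΔCt values of 6.58, 6.85 and 7.41 in βTC1. In untreated αTC1-6 it had 8.998, 9.416 and 9.603, again without overlap. The log2 difference was -2.39 (standard error 0.46, 95% confidence interval -3.52 to -1.26, Limma test, Benjamini-Hochberg adjusted p-value 0.00735).

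Both arms are cut from the same precursor, and their Ct difference within a sample does not depend on the miR-26a value, which cancels. The Ct of miR-126-5p minus that of miR-126-3p was positive in all 15 samples, at 2.14 ± 0.42 cycles (SD, n = 15), from 1.42 to 2.79. It averaged 2.30 ± 0.33 in untreated αTC1-6 at 24 h and 2.30 ± 0.71 in βTC1 (SD, n = 3), a difference of 0.001 cycles (two-sided exact permutation test, p = 1, with 0.1 the smallest p that 3 against 3 allows). The βTC1 replicates spread most, at 1.48, 2.63 and 2.79 cycles. In the other αTC1-6 groups the mean was 2.29 ± 0.29 with cytokines at 24 h, 1.85 ± 0.14 untreated at 48 h and 1.97 ± 0.50 with cytokines at 48 h (SD, n = 3).

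miR-145, a regulator of smooth muscle differentiation, had ΔCt values of 9.59, 10.28 and 10.83 in βTC1. In untreated αTC1-6 at 24 h it had 11.83, 12.45 and 12.13, so that the groups did not overlap. The log2 difference was -1.90 (standard error 0.50, 95% confidence interval -3.16 to -0.65, Limma test, Benjamini-Hochberg adjusted p-value 0.0271). Its partner miR-143 was undetermined in all 6 of these samples in the normalized table.

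In this comparison 45.8% of all miRNAs tested had groups that did not overlap, 28.5% with αTC1-6 lower, so the absence of overlap for these 3 assays was a common pattern. Over all 12 αTC1-6 samples, treated or not, ΔCt of miR-126-3p ran from 6.33 to 8.84, against 4.22 to 5.10 in βTC1. For miR-126-5p the ranges were 8.998 to 10.518 and 6.58 to 7.41, and for miR-145 they were 10.99 to 13.07 and 9.59 to 10.83. All 3 kept every αTC1-6 sample below every βTC1 sample in level, as did 17.6% of the 278 miRNAs with a Ct in all samples other than miR-26a.

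miR-199a-3p did not pass the test between the lines. Its ΔCt values were 11.22, 10.25 and 10.41 in βTC1 and 10.02, 11.11 and 12.22 in untreated αTC1-6 at 24 h. All 3 βTC1 values fell inside the range of αTC1-6. The log2 difference was -0.49 (95% confidence interval -2.23 to 1.26, Limma test, Benjamini-Hochberg adjusted p-value 0.63). This interval includes the -1.90 of miR-145 and stops short of the -2.39 of miR-126.

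The calls rested on few samples. Leaving out untreated αTC1-6 replicate 2 or 3 or βTC1 replicate 2 reduced the 3 assays past the threshold to 1, miR-126-5p: without them miR-126-3p had adjusted p-values of 0.0694, 0.0696 and 0.0501 (Limma test, Benjamini-Hochberg) with log2 differences of -2.31, -2.12 and -2.18. miR-145 also missed the threshold without αTC1-6 replicate 1 or βTC1 replicate 1 (adjusted p-values 0.0521 and 0.0912, Limma test, Benjamini-Hochberg), and with αTC1-6 replicate 2 left out it reached 0.118. Over all miRNAs tested, 29.6% passed with all replicates. Without untreated αTC1-6 replicate 2 or 3 or βTC1 replicate 2 the shares were 21.3%, 20.8% and 21.2%.

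**Figure D2:**
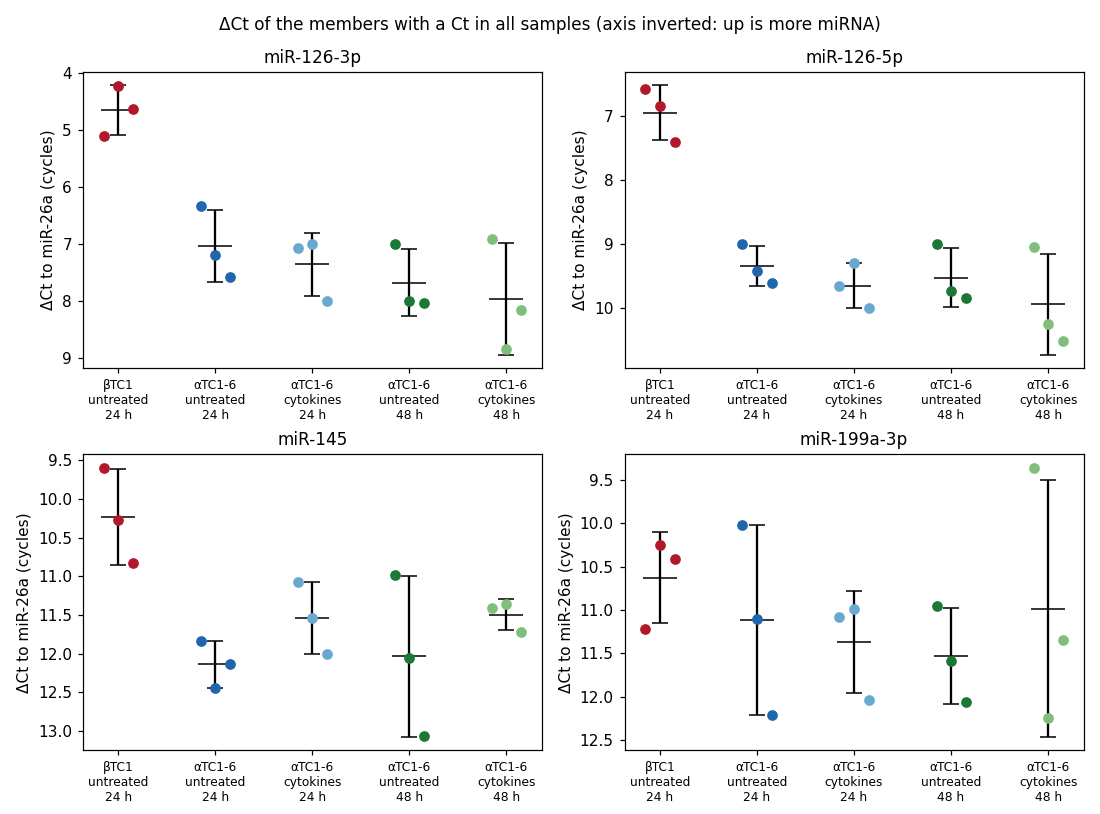
ΔCt to miR-26a in cycles (vertical axes, inverted so that a higher point is more miRNA) of the 4 miRNAs with a Ct in all samples, by group; points are the 3 replicates, and bars are the mean and SD. The βTC1 points of miR-126-3p (4.22 to 5.10), miR-126-5p (6.58 to 7.41) and miR-145 (9.59 to 10.83) lie apart from all 12 αTC1-6 points, whereas those of miR-199a-3p lie among them.

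Marker assays of blood, striated muscle and epithelium were compared between the lines in the same way. Over all 480 miRNAs tested there, 17.7% passed as lower and 11.9% as higher in αTC1-6. Of 5 blood cell assays on the cards, 4 were tested and 1 was lower in αTC1-6, miR-142-3p, a leukocyte miRNA (log2 difference -2.96, Benjamini-Hochberg adjusted p-value 0.0477, Limma test). The summed relative quantity of the 5, that is 2 to the power of -ΔCt, was 0.00101 to 0.00223 in untreated αTC1-6 at 24 h and 0.000862 to 0.00302 in βTC1. These sums mainly reflect miR-150, with mean ΔCt of 9.46 and 9.39. The next lowest mean ΔCt was 14.46 (miR-223) in αTC1-6 and 12.28 (miR-142-3p) in βTC1. Such sums, here and below, follow their lowest ΔCt and add assays of unlike efficiency. Of 4 striated muscle assays, 2 were tested and miR-133a was lower (log2 difference -5.83, Benjamini-Hochberg adjusted p-value 0.0372, Limma test), with sums of 7.49e-05 to 0.000126 and 0.000313 to 0.000928, miR-1 undetermined in the αTC1-6 samples and miR-133b undetermined in both groups. Of 5 epithelial assays, 3 were tested, with a median log2 difference of -3.53, and miR-200b was lower (-13.41 against a Ct of 40 in αTC1-6, Benjamini-Hochberg adjusted p-value 0.00081, Limma test). Their sums were 0.000723 to 0.00123 in αTC1-6, where miR-200a, miR-200b and miR-429 were undetermined, and 0.00301 to 0.0285 in βTC1. The part of these assays in the differences of miR-126 and miR-145 was not tested.

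Other miRNAs with vascular or mesenchymal roles were followed as lists. Of 17 linked to vessels, 16 were tested between the lines, with a median log2 difference of -3.08 against -0.52 over all 480 tested. Of the 16, 9 were lower in αTC1-6 (17.7% over all tested) and 1 was higher (11.9% over all tested). The lower ones with the largest differences were miR-20a (-17.23) and miR-19a (-16.64), both of the miR-17-92 cluster, and miR-221 (-15.84), a regulator of endothelial Kit. These 3 had a Ct in 3 or 4 of the 6 samples, so the values are set by the Ct of 40 given to undetermined wells. The other lower ones were miR-17, miR-18a, miR-19b and miR-92a of the miR-17-92 cluster, miR-222, the neighbour of miR-221, and miR-218. The count and the median thus rest largely on clustered miRNAs, and the 9 are not 9 separate transcripts. The exception, named after its value was seen, was miR-130a, which was higher in αTC1-6 by 2.71 on the log2 scale (standard error 0.49).

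Of 13 miRNAs linked to mesenchyme, 9 were tested, with a median log2 difference of -3.76 against -0.52 over all 480 tested. Of the 9, 5 were lower in αTC1-6 (17.7% over all tested) and 3 were higher (11.9% over all tested). The lower ones with the largest differences were the Hox-cluster miRNAs miR-10a (-19.92) and miR-10b (-16.03), each with a Ct in 3 of 6 samples, and miR-31 (-8.09, with a Ct in all 6). The values of miR-10a and miR-10b are set by the Ct of 40 given to the undetermined αTC1-6 wells. The other lower ones were miR-133a (-5.83), the same assay as counted above under striated muscle, and miR-125b-5p (-3.76). The 3 higher ones, also named after their values were seen, were miR-29a (2.29), miR-29b (2.11) and miR-29c (1.60), a family known to repress collagen genes. The members of this list thus went in both directions.

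None of the chosen miRNAs passed the test after exposure to cytokines, at either time. At 24 h 6 of the 10 were tested and 0 passed, against 1 of 445 (0.225%) over all miRNAs tested. At 48 h 9 were tested and 0 passed, against 3 of 534 (0.562%). With the replicate number as a block 0 of all miRNAs passed at either time (Limma test), while 47 at 24 h and 121 at 48 h had an unadjusted p-value under 0.05. At an unadjusted p-value under 0.05 the shares of all miRNAs tested were 4.49% and 11.2%, and 0 of the chosen miRNAs were among them, the lowest unadjusted p-value being 0.191 at 24 h (miR-145, Limma test) and 0.345 at 48 h (miR-199b*, Limma test).

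With cytokines at 24 h, ΔCt of miR-126-3p was 7.066, 7.002 and 8.004. The log2 difference was -0.32 (95% confidence interval -1.60 to 0.96). For miR-126-5p the treated values were 9.649, 9.303 and 10.001, and the log2 difference was -0.31 (95% confidence interval -1.24 to 0.61). Treated and untreated samples overlapped for both arms, and neither interval reached the -2.39 measured between the lines.

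At 48 h the untreated ΔCt values of miR-126-3p were 7.001, 8.003 and 8.030 and the treated ones were 6.91, 8.84 and 8.15. Replicate 1 was the sample of highest level in both groups, and the groups overlapped. The log2 difference was -0.29 (95% confidence interval -1.91 to 1.34). miR-126-5p had untreated values of 8.999, 9.737 and 9.841 and treated values of 9.04, 10.25 and 10.52, with a log2 difference of -0.41 (95% confidence interval -1.77 to 0.94). The signs of both 48 h differences turn to 0.39 and 0.27 when each sample is centred on its median in place of using miR-26a.

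The replicate numbers pair treated and untreated samples. With the pairs as a block, the differences of the 4 miRNAs detected throughout had Benjamini-Hochberg adjusted p-values of 0.457 to 0.747 at 24 h and 0.426 to 0.572 at 48 h (Limma test). Within pairs miR-126-5p at 48 h was lower in treated cells in 3 of 3, with log2 differences of -0.040, -0.515 and -0.677 (unadjusted p-value 0.176, Limma test with the block). The median log2 difference of all 534 miRNAs tested at 48 h with the block was -0.51. How many of all miRNAs kept 1 sign in 3 of 3 pairs was not counted, at 24 h or at 48 h.

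miR-145 had a positive log2 difference with cytokines at both times, 0.59 at 24 h (95% confidence interval -0.40 to 1.59) and 0.54 at 48 h (95% confidence interval -0.99 to 2.07). Its treated ΔCt values were 11.08, 11.54 and 12.01 at 24 h and 11.41, 11.35 and 11.72 at 48 h, and the untreated values at 48 h were 10.99, 12.05 and 13.07. The treated 48 h samples all lay inside the range of their controls. Within pairs miR-145 at 24 h was higher in treated cells in 3 of 3, with log2 differences of 0.754, 0.906 and 0.123 (unadjusted p-value 0.0974, adjusted 0.457, Limma test with the block and Benjamini-Hochberg correction), and at 48 h in 2 of 3. miR-199a-3p had log2 differences of -0.25 at 24 h (95% confidence interval -1.97 to 1.46) and 0.55 at 48 h (95% confidence interval -1.61 to 2.71). Its 48 h treated values of 9.36, 12.24 and 11.35 spanned more than the untreated ones of 10.96, 11.59 and 12.06.

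The cytokine effect at 48 h minus that at 24 h was tested for 7 of the chosen miRNAs and 0 passed, against 1 of 477 (0.21%) over all. For the 4 miRNAs with a Ct in all samples this difference lay between -0.10 (miR-126-5p) and 0.80 (miR-199a-3p), with Benjamini-Hochberg adjusted p-values of 0.992 (Limma test). In the lists of vessel-linked and mesenchyme-linked miRNAs 0 passed in either cytokine comparison or in this difference. The median log2 differences of the vessel-linked list were -0.14 at 24 h and -0.22 at 48 h, against -0.15 and -0.51 over all miRNAs tested, and those of the mesenchyme-linked list were -0.01 and 0.48.

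**Figure D3:**
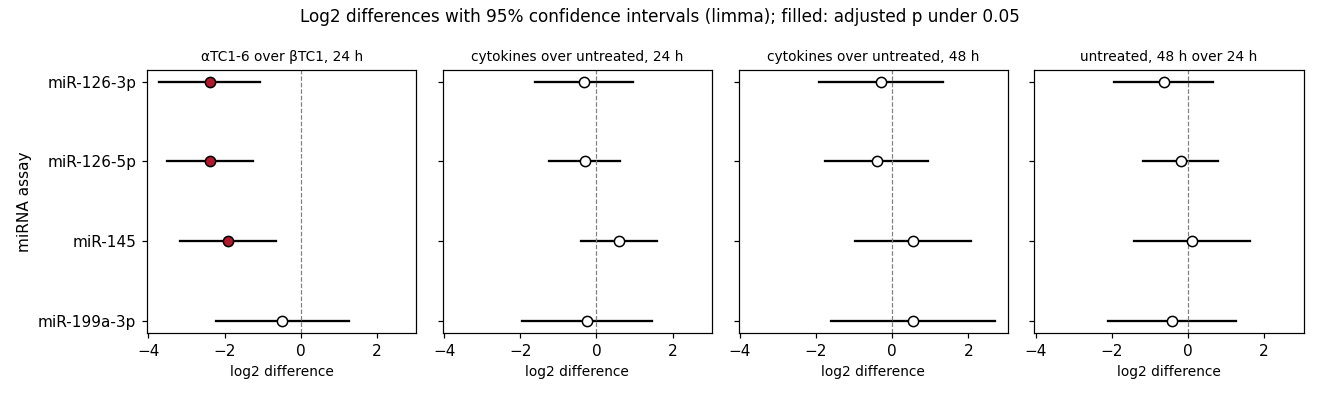
Log2 differences (horizontal axes) of the 4 miRNAs with a Ct in all samples in the comparisons named above each panel, with 95% confidence intervals of the Limma test as lines; filled points passed at a Benjamini-Hochberg adjusted p-value under 0.05. The filled points are miR-126-3p (-2.39), miR-126-5p (-2.39) and miR-145 (-1.90) between the lines, and all other intervals include 0.

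Between untreated αTC1-6 at 48 h and at 24 h, 8 of the chosen miRNAs were tested and 1 passed, miR-143, against 5.93% of all 489 tested, 5.52% being higher at 48 h. The 4 miRNAs with a Ct in all samples did not pass, and their log2 differences were -0.64 for miR-126-3p (95% confidence interval -1.94 to 0.65), -0.19 for miR-126-5p (-1.17 to 0.80), 0.10 for miR-145 (-1.43 to 1.63) and -0.42 for miR-199a-3p (-2.11 to 1.27). Ordered by mean level, miR-126-3p was highest in βTC1, followed by αTC1-6 untreated at 24 h (ΔCt 7.04), with cytokines at 24 h (7.36), untreated at 48 h (7.68) and with cytokines at 48 h (7.97). The αTC1-6 neighbours in this order overlapped. miR-126-5p and miR-145 were likewise highest in βTC1, with αTC1-6 means of 9.34 to 9.94 and 11.49 to 12.14 cycles whose groups overlapped.

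The call of miR-143, a smooth muscle miRNA, depended on which deposited table was read. In the normalized table it was undetermined in all 3 untreated αTC1-6 samples of 24 h and had Ct values of 27.74, 29.83 and 32.06 in the untreated samples of 48 h, and the log2 difference against the Ct of 40 was 10.02 (standard error 1.47, Limma test, Benjamini-Hochberg adjusted p-value 0.0101). In the non-normalized table the 24 h samples had Ct values of 30.16, 29.10 and 28.21, inside the range of the 48 h values. With these the log2 difference was -0.82 (95% confidence interval -4.60 to 2.95, Limma test, Benjamini-Hochberg adjusted p-value 0.973), and 0.385% of 520 miRNAs passed. The direction between the times thus turned with the table. With cytokines at 24 h, replicates 1 and 3 had a Ct of 31.03 and 30.04 in the normalized table and of 29.999 and 28.17 in the other.

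The call also failed without untreated 24 h replicate 3 (log2 difference 9.82, Limma test, Benjamini-Hochberg adjusted p-value 0.0588), and miR-143 could not be tested without any of the 48 h replicates. Of the 5 epithelial assays, miR-200a, miR-200b and miR-429 were undetermined in the 3 untreated and 3 treated αTC1-6 samples of 24 h, and miR-200a and miR-429 passed as higher at 48 h. miR-141 had a Ct in 1 untreated and 2 treated samples of 24 h and did not pass. miR-200c had a Ct in all of these samples, with a log2 difference of -1.22 between the times (Limma test, Benjamini-Hochberg adjusted p-value 0.201). The part of the undetermined wells in these differences was not tested.

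At 24 h miR-143 could be compared between the lines only through the non-normalized table. There its Ct values were 29.98, 29.02 and 31.05 in βTC1 and 30.16, 29.10 and 28.21 in untreated αTC1-6. The groups overlapped, with a log2 difference of 0.71 (95% confidence interval -1.67 to 3.09, Limma test, Benjamini-Hochberg adjusted p-value 0.677). For miR-145 the same table gave -1.90 (95% confidence interval -3.20 to -0.61, adjusted p-value 0.0525, Limma test, Benjamini-Hochberg). Both intervals overlap, and the difference between both miRNAs was not tested. In the normalized table, the untreated αTC1-6 samples of 48 h exceeded βTC1 of 24 h, which is undetermined there, by 9.87 on the log2 scale (standard error 1.46, Limma test, Benjamini-Hochberg adjusted p-value 0.0031), a difference that mixes line and time and is set by the Ct of 40. At 48 h miR-143 had treated ΔCt values of 9.84, 10.98 and 12.17 and untreated ones of 8.76, 12.86 and 14.11. The treated values lay inside the range of the untreated ones, with a log2 difference of 0.92 (95% confidence interval -3.10 to 4.94).

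miR-214, the partner of miR-199a on Dnm3os, was undetermined in all 9 samples of 24 h in the normalized table. In the non-normalized table it had a Ct in these 9 samples, and its values were far apart within a group. They were 32.08, 30.84 and 28.98 in βTC1, 33.27, 27.06 and 26.68 in untreated αTC1-6 and 29.19, 25.27 and 28.20 with cytokines. The log2 difference between the lines was 1.49 in that table (95% confidence interval -2.65 to 5.62, Limma test, Benjamini-Hochberg adjusted p-value 0.608).

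At 48 h both tables gave the same values for miR-214: 29.18 and 26.32 with 1 undetermined in untreated αTC1-6, and 33.82 and 25.33 with 1 undetermined in the treated samples. Replicate 1 was the undetermined sample in both groups. Of the 248 card A miRNAs with a Ct in all 9 samples of 24 h in the non-normalized table, miR-214 was 1 of 4 that were undetermined in all 9 in the normalized table.

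**Figure D4:**
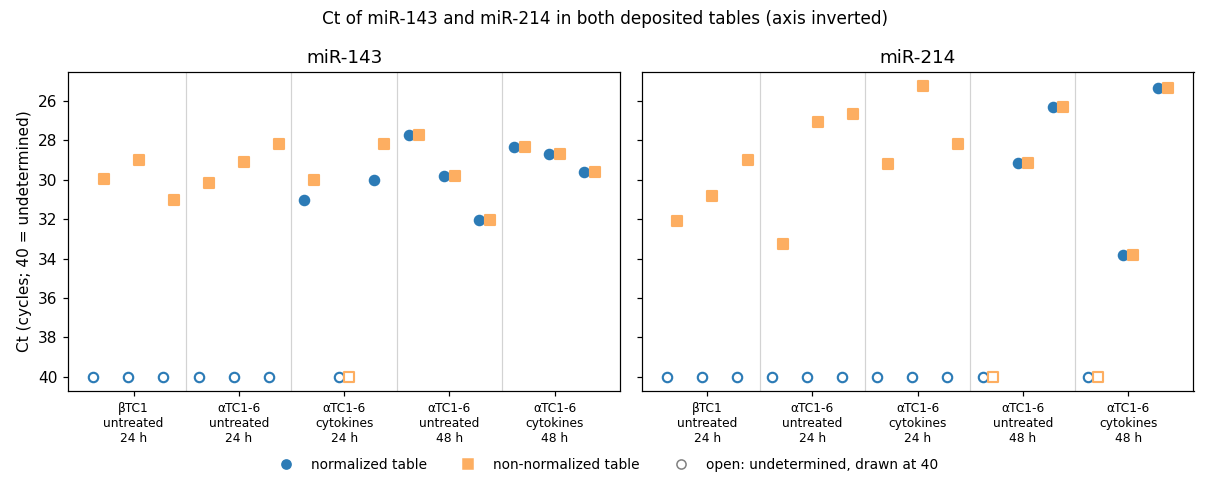
Ct in cycles (vertical axis, inverted) of miR-143 and miR-214 in the 15 samples by group, from the normalized table (circles) and the non-normalized table (squares); open symbols are undetermined wells, drawn at 40. At 48 h the circles and squares coincide, whereas at 24 h 6 samples of miR-143 and 9 of miR-214 are open only in the normalized table.

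miR-199a-5p, the other arm of the precursor of miR-199a-3p, was undetermined in 12 samples. The 3 Ct values in the normalized table were 23.36 and 5.20 in untreated replicates 2 and 3 at 48 h and 6.43 in treated replicate 3 at 48 h. The non-normalized table added 34.28 and 29.74 in treated replicates 2 and 3 at 24 h. While miR-199a-3p had a Ct in all 15 samples, these few values of the 5p arm allowed no comparison of both arms.

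The star assays of card B had a Ct in only part of their wells. miR-199b*, the 5p arm of the miR-199b precursor, had a Ct in 20 of 30 wells, all between 33.97 and 36.02, and in the 8 samples with a Ct in both wells these differed by a median of 0.91 cycles. The log2 differences of its well means were 0.96 between the lines, -0.85 and 1.97 with cytokines at 24 h and 48 h, and -2.65 between the times, with 95% confidence intervals that all included 0. Setting values above 35 to 35 turned the first 3 of these to -0.04, 0.09 and -0.09.

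miR-214* had a Ct in 11 of 30 wells, from 8.38 to 35.94, 2 of them under 12, and both wells had a Ct in 2 samples. Its log2 difference between the lines was 2.89 (95% confidence interval -7.99 to 13.78), and leaving out the wells under 12 turned it to -2.25. miR-145* had a Ct in 6 of 30 wells, from 12.45 to 35.41. The 1 sample with a Ct in both of its wells gave 12.45 and 33.37, a difference of 20.92 cycles. miR-145* was tested between the times only, where its log2 difference was -1.71 (95% confidence interval -10.80 to 7.38).

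By median-centred level over all 15 samples, the 5 miRNAs most like miR-126-3p among 278 were miR-19b (Pearson's r 0.938), miR-129-3p (0.934), miR-92a (0.926), miR-378 (0.919) and miR-96 (0.916), and miR-126-5p came at rank 6 (0.916). miR-145 came at rank 73 (0.457) and miR-199a-3p at rank 85 (0.342). The samples fall into αTC1-6 and βTC1, and within the 12 αTC1-6 samples the same 5 had r between -0.420 (miR-92a) and 0.434 (miR-96). There miR-126-5p had 0.395 and miR-145 had -0.294, whereas miR-199a-3p came at rank 4 with 0.654. All values were centred on the median of the same sample, and the correlations are descriptions without a test.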

How the data were processed

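The 10 assays and the marker lists were chosen with earlier results of these data known. RNA of 15 samples was extracted with Trizol, reverse transcribed and preamplified with Megaplex primer pools and run on TaqMan Rodent A and B cards. As deposited, 1 table holds Ct values without normalization and another holds ΔCt, which are log2 values relative to miR-26a alone, beside relative quantities, a ratio to miR-26a that the authors computed and that was not used. The methods name multiple reference genes. A further deposited table holds the authors' fold changes between groups and was not used.

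Ct values were recovered from ΔCt, duplicate wells were averaged, and undetermined wells were set to 40. Assays with a Ct in at least as many samples as without one were tested with limma 3.58.1 (R 4.3.3) on -ΔCt of the groups compared, two-sided, with Benjamini-Hochberg adjustment within each card and a threshold of 0.05. The script was tested on simulated data. Listed miRNAs were named by rule: up to 3 per list with the largest log2 differences among those past the threshold.

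The number of replicates, 3 per group, limits the precision. Deviations of same-numbered αTC1-6 samples correlated across assays (0.276 to 0.477 at 24 h, 0.259 to 0.443 at 48 h), so the numbers pair treated and untreated samples. Differently numbered ones had -0.351 to -0.088 and -0.326 to 0.002. Deviations were taken from each group's mean, so positive same-numbered values push the others towards negative ones. Their contrast therefore adds no evidence of pairing. Between αTC1-6 and βTC1 the correlations of same-numbered samples were weak (0.065 to 0.094), and those of differently numbered ones ran from -0.110 to 0.007. No main fit had a block, so the confidence intervals with cytokines do not use the pairing. The result between the lines with a block is given below.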

Additional observations from a re-analysis of the deposited data

How the results depend on the processing

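Of the alternatives, 1 was chosen after the data were seen, leaving out wells with a Ct under 12. Over the log2 differences of single assays, 503 recomputed values kept their direction and their side of the threshold, 14 kept the direction but no longer passed, and 33 changed sign. miR-126-5p passed between the lines under all 21 alternatives (adjusted p-value 0.000764 to 0.0471), miR-126-3p failed in 4 (0.00372 to 0.0696) and miR-145 in 8 (0.00878 to 0.118), among them the non-normalized table (0.0525), a level-dependent prior variance (0.0522) and the 48 h controls (0.0968), with which miR-143 passed (9.87, adjusted p-value 0.0031). The number of chosen assays past the threshold between the lines was 1 to 3 with a replicate left out. Between the times it was 0 with a Ct required in every sample, with Ct above 35 set to 35 (miR-143 5.02, adjusted p-value 0.185), with undetermined wells as missing and with the non-normalized table, and 0 to 1 with a replicate left out. It stayed 0 with cytokines under all alternatives run. The median log2 difference of all assays between the lines moved from -0.52 to -0.84 with U6 and snoRNA controls and to -0.37 without normalization, and it was -0.049 when βTC1 replicate 2 was left out and -0.80 when αTC1-6 replicate 1 was, and that with cytokines at 48 h moved from -0.51 to 0.17 after median centring. The assays past the threshold over both cards numbered 81 to 171 between the lines, against 142, 0 to 2 and 0 to 5 with cytokines at 24 h and 48 h, against 1 and 3, 0 to 30 between the times, against 29, and 0 to 4 for the difference of cytokine effects, against 1.

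With the replicate number as a block, miR-126-3p did not pass between the lines (-2.39, adjusted p-value 0.0528), leaving 2 chosen assays past the threshold, and no other call among the chosen assays changed.

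Values that changed sign, all short of the threshold once changed, were as follows. The only one whose main value had passed was miR-143 between the times (10.02). Between the lines, miR-199b* was -0.041 with Ct above 35 set to 35 and -1.69 with the 48 h controls, and miR-214* was -2.25 without wells under 12. Leaving out 1 replicate there gave -1.29 to 6.35 for miR-214* and -1.03 to 0.063 for miR-199a-3p. With cytokines at 24 h, setting Ct above 35 to 35 gave 0.088 for miR-199b* and 0.32 for miR-214*, and undetermined wells as missing gave 0.82 for miR-199b*. Leaving out 1 replicate there gave -0.59 to 0.029 for miR-126-3p, -0.80 to 0.29 for miR-199a-3p, -4.52 to 1.73 for miR-214* and -1.85 to 0.82 for miR-199b*. At 48 h, median centring gave 0.39 for miR-126-3p and 0.27 for miR-126-5p, U6 and snoRNA controls gave 0.046 for miR-126-3p, and Ct above 35 set to 35 gave -0.087 for miR-199b*. Leaving out 1 replicate there gave -0.82 to 0.15 for miR-126-3p, -4.95 to 1.86 for miR-214, -0.18 to 2.49 for miR-143 and -0.26 to 1.18 for miR-199a-3p. Between the times, U6 and snoRNA controls gave 0.23 for miR-126-5p, the non-normalized table -0.82 for miR-143, and leaving out wells under 12 gave 4.96 for miR-214*. Leaving out 1 replicate there gave -0.97 to 0.13 for miR-199a-3p, -0.42 to 0.62 for miR-145 and -3.64 to 4.004 for miR-214*. The cause was not tested. Where undetermined wells enter, a difference is set by the Ct of 40.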

Other observations

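Many Ct values lay just under a whole cycle. Of the 60 values of miR-126-3p, miR-126-5p, miR-145 and miR-199a-3p, 22 (36.7%) were within 0.05 cycles below a whole number, as were 2179 of 8641 Ct values over all miRNA wells (25.2%). For miR-126-5p it was 7 of 15 values, such as 27.98, 26.96 and 27.96. For miR-143 and miR-214 it was 0 of 8 and 0 of 4. The window covers 0.05 of each cycle, so evenly spread values would fall in it far less often than the 25.2% over all wells. Its effect on the tests above was not tested.

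The non-normalized table gave identical values in all wells of 150 of 150 miRNA assays that occupy more than 1 well, whereas in the normalized table this held for 1 of the 150. For miR-145*, miR-199b* and miR-214* the repeated value was that of the first well in the normalized table wherever that well had a Ct.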
